A study of Homo sapiens with 6 samples.

Results

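Ephrins, Eph receptors, semaphorins, plexins and neuropilins are cell-surface and secreted cues and receptors that guide cell contact and movement. Their transcripts were followed here by RNA sequencing in WM3248, an established human line that the labels call a VGP primary melanoma cell. A total of 3 libraries came from cells given a commercial negative control siRNA (siNC, n = 3), and 3 came from cells given an siRNA against PPARGC1A, the gene of the transcriptional coactivator PGC1-alpha (siPGC1a, n = 3). Each siRNA reached a final 30 nM by lipofection, and cells were lysed for RNA 48 h later. All groups therefore share the cell line, the transfection and the time point. A single siRNA product per arm was used, so effects of the target and of the siRNA itself cannot be told apart, and no sequence of either siRNA is given in the sources used here. Members were the genes whose symbol fits the ephrin (EFNA, EFNB), Eph receptor (EPHA, EPHB), semaphorin class 3 to 7 (SEMA3 to SEMA7) or plexin (PLXNA to PLXND) naming pattern, plus NRP1 and NRP2. The rule found 53 genes among the 57688 rows of the table. Of these, 34 had a mean of at least 1 FPKM (sequenced fragments scaled to gene length and library size) over the 6 libraries and were tested, and 19 lay below that level.

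Eph receptors are receptor tyrosine kinases that are activated by ephrins on a neighbouring cell. The A-type ephrins are held by a lipid anchor, whereas the B-type ephrins span the membrane and signal in the cell that carries them as well. Semaphorins bind plexins, whose cytoplasmic domain acts on small GTPases, and most secreted class 3 semaphorins need a neuropilin as the ligand-binding partner of a plexin. Both systems were first known from axon guidance and from neural crest migration, the origin of melanocytes, and both act on the cytoskeleton of melanoma cells.

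The libraries held about 25040000 to 26400000 reads each, as recovered from the steps between low FPKM values, and the first principal component separated the siRNA groups. The targeted gene checked the labels. PPARGC1A stood at 0.932, 1.04 and 0.947 FPKM in the siNC libraries and at 0.4, 0.354 and 0.413 FPKM in the siPGC1a libraries, a ratio of 0.4 (limma adjusted p = 0.000234). All 10 melanocyte and melanoma markers reached 1 FPKM in a library, but at very unequal levels. S100B (802 and 924 FPKM in siNC and siPGC1a), DCT (394 and 253 FPKM) and SOX10 (246 and 230 FPKM) were abundant, whereas the pigment cell genes MLANA (1.86 and 1.02 FPKM), TYR (1.44 and 1.13 FPKM) and TYRP1 (1.08 and 0.907 FPKM) were low. Of the 9 tested, 4 (DCT, PMEL, MITF and MLANA) were lower in siPGC1a, 1 (S100B) was higher and 4 did not pass, with a median log2 difference of -0.2. The part of this change in the results below was not tested. PTPRC of immune cells and KRT1 of keratinocytes were listed at 0 in every library. Of the marker lists for other cells, the genes that reached 1 FPKM numbered 1 of 6 for keratinocytes (KRT10, 20.6 and 22.4 FPKM), 3 of 7 for immune cells (LYZ highest, 1.73 and 0.914 FPKM), 1 of 5 for endothelium (TIE1, 24.4 and 22.9 FPKM) and 6 of 8 for fibroblasts (LUM highest, 8.51 and 6.38 FPKM). Summed over 8 fibroblast markers the level was 22.3 to 23.3 FPKM in siNC and 15.8 to 17.4 FPKM in siPGC1a. The same holds for this shift. In bulk RNA, fewer cells of a kind and less RNA per cell cannot be told apart.

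Of the 34 tested members, 5 were higher and 18 were lower in siPGC1a, and 11 did not pass an adjusted p of 0.05 (limma on log2(FPKM + 1), adjusted over 12020 genes). Over all tested genes 48.1% were called, 25.6% higher and 22.5% lower. The groups did not overlap for 28 of the 34 members, and this held for 57.2% of all tested genes. The median difference was -0.16 on the log2(FPKM + 1) scale over the tested members and 0.01 over all tested genes. Most of the called changes were modest. The median change in mean FPKM was 23.1% over the called members that were higher and -17.5% over those that were lower. Of the 34 tested members 4, all semaphorins that fell, were called and differed at least 1.5-fold, beside 703 of all 12020 tested genes. The count of lower members was 11 without siNC replicate 2, 11 without siNC replicate 3 and 11 when no filter on low values was used. In contrast, 14 of the 23 called members kept their call in each of the other settings that tested them. These 14 were EFNB2, EFNB3, EPHA2, EPHB3, NRP2, SEMA3A, SEMA3C, SEMA3D, SEMA3F, SEMA4B, SEMA4F, SEMA4G, SEMA6D and SEMA7A.

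**Figure D1:**
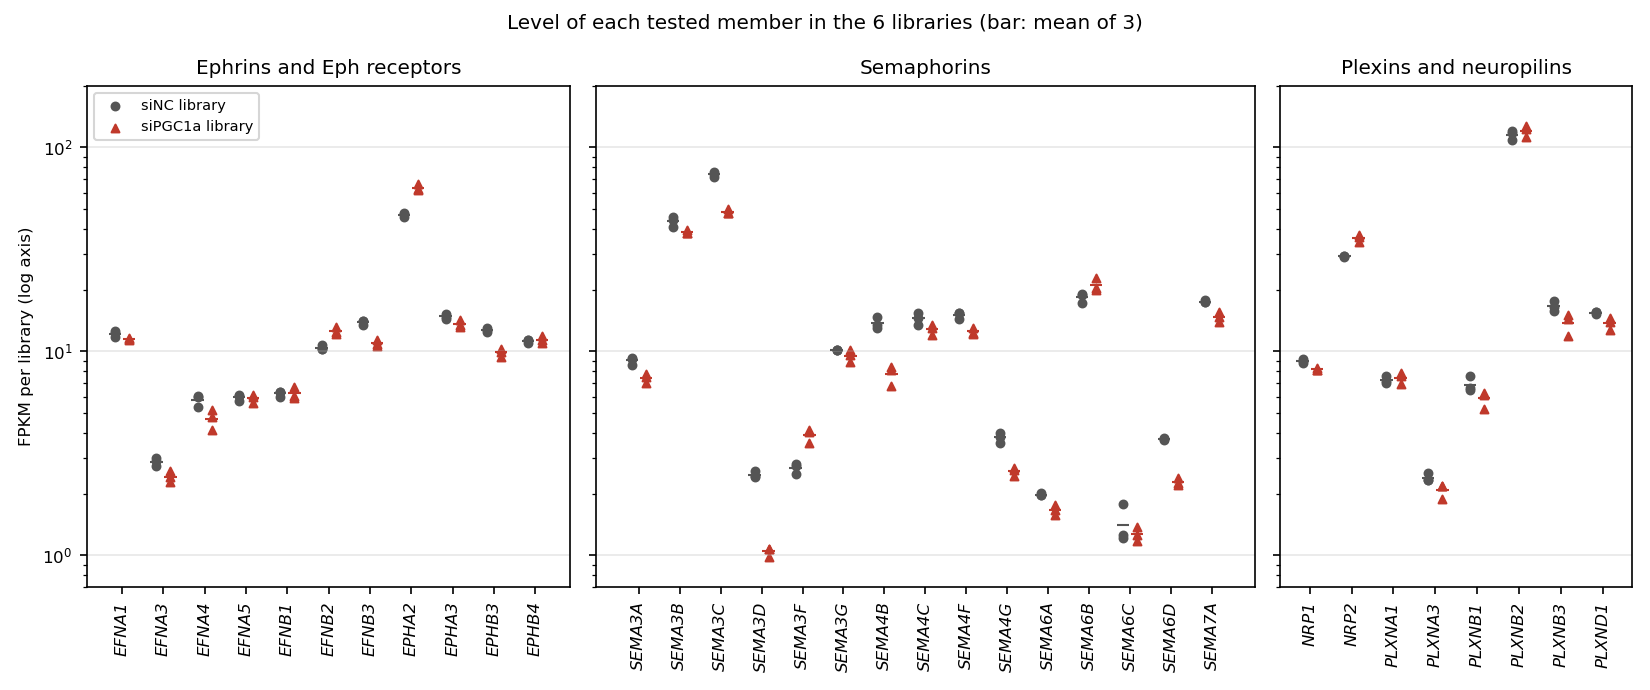
Level of the 34 tested members in each library, as FPKM on a log axis, with siNC libraries as grey circles, siPGC1a libraries as red triangles and a short bar at the mean of 3. PLXNB2 lies highest at 109 to 127 FPKM, and the 3 SEMA3D triangles, at 0.985 to 1.08 FPKM, lie well below its circles at 2.42 to 2.58 FPKM.

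**Figure D2:**
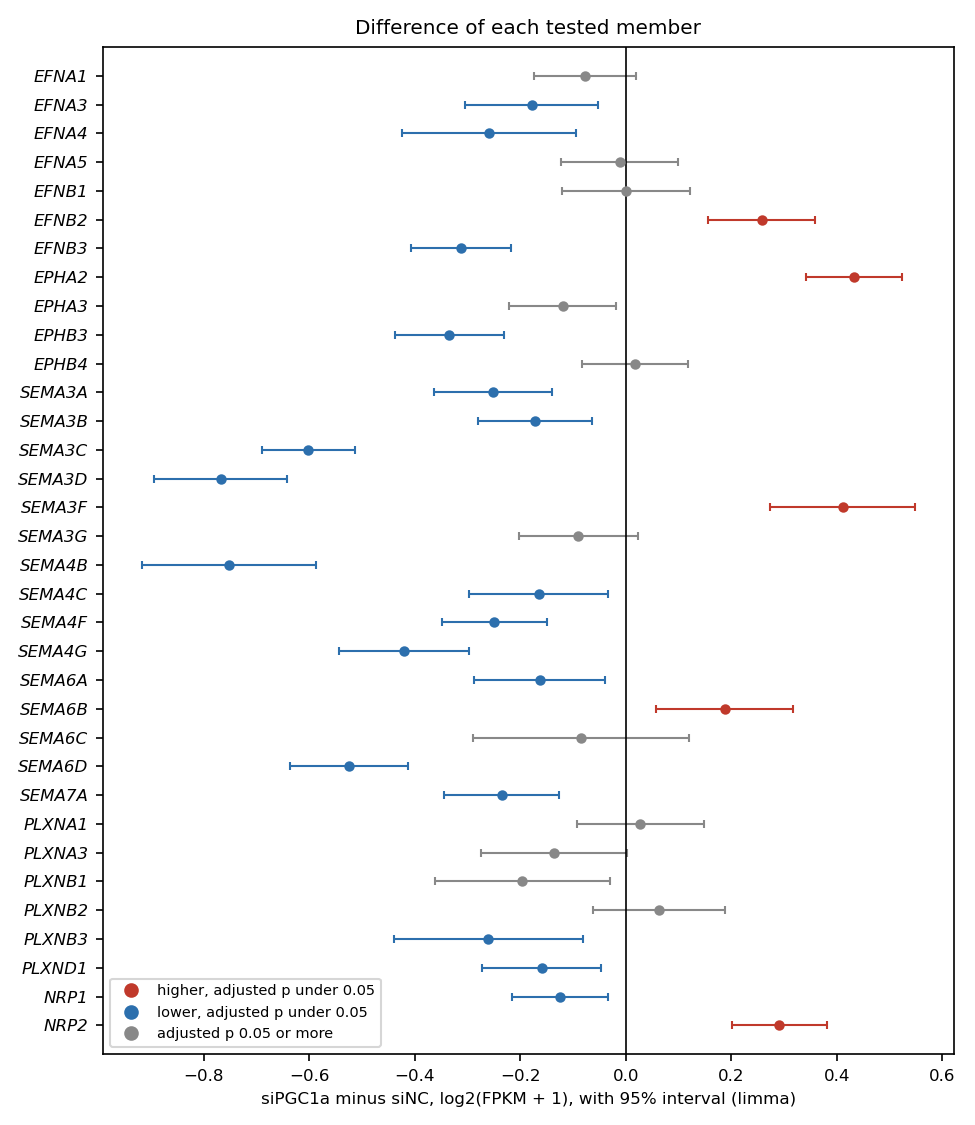
Difference between siPGC1a and siNC for each tested member on the log2(FPKM + 1) scale, with limma's 95% interval before adjustment for the number of genes. Of the 34 members, 5 are drawn in red (higher), 18 in blue (lower) and 11 in grey (not past the threshold).

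The A-type ephrins were measured for 4 of 5 genes, and 2 of them fell by modest amounts. EFNA4 stood at 5.99, 5.35 and 6.01 FPKM in siNC and at 5.17, 4.77 and 4.09 FPKM in siPGC1a. All siPGC1a values lay below all siNC values, and the mean went from 5.78 ± 0.377 to 4.68 ± 0.543 FPKM (SD, n = 3; limma adjusted p = 0.0159). EFNA3 was at 2.74, 3.02 and 2.89 FPKM in siNC and at 2.29, 2.41 and 2.59 FPKM in siPGC1a (limma adjusted p = 0.0254), again without overlap. EFNA1, the most abundant A-type ephrin and the preferred ligand of EPHA2, stood at 11.7, 12.3 and 12.6 FPKM against 11.7, 11.4 and 11.4 FPKM. Its difference of -0.08 did not pass (95% interval -0.17 to 0.02, limma adjusted p = 0.162). EFNA5 averaged 5.95 ± 0.213 in siNC and 5.89 ± 0.279 FPKM in siPGC1a (n = 3, limma adjusted p = 0.862), with overlapping groups. In RefSeq order EFNA4, EFNA3 and EFNA1 are neighbours on chromosome 1, next to a read-through gene of the first pair, so that reads of EFNA4 and EFNA3 could be shared in counting. The EFNA4 call was lost without siNC replicate 3 (adjusted p = 0.0561) and that of EFNA3 without siNC replicate 2 (0.0889), siNC replicate 3 (0.072), siPGC1a replicate 1 (0.0824) or siPGC1a replicate 2 (0.0547). Without a filter neither passed (0.0917 and 0.0772), and EFNA3 did not with quantile scaling (0.102).

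The 3 B-type ephrins went separate ways. EFNB2, the transmembrane ligand of EPHB4, stood at 10.7, 10.2 and 10.2 FPKM in siNC and at 12.2, 12.5 and 13.2 FPKM in siPGC1a. Each siPGC1a library exceeded each siNC library, and the difference was 0.26 (SE 0.045, limma adjusted p = 0.00136). EFNB3 moved the other way, from 13.5, 14.05 and 14.03 FPKM to 10.9, 11.3 and 10.7 FPKM. Its difference was -0.31 (SE 0.042, limma adjusted p = 0.000293), with no overlap. EFNB1 stood at 6.22 ± 0.207 and 6.23 ± 0.437 FPKM (n = 3, limma adjusted p = 0.996). As a result EFNB3 led the B-type ephrins in siNC and EFNB2 led them in siPGC1a. The within-library ratio of EFNB2 to EFNB3 was 0.729 to 0.792 in siNC and 1.1 to 1.24 in siPGC1a, a pair chosen after its values were seen and given with no test. The summed FPKM of the 3 genes overlapped between groups, at 30.5 ± 0.209 and 29.8 ± 0.784 FPKM.

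Among the Eph receptors EPHA2 was the most abundant and the only one of the 4 tested that rose. EPHA2, an A-type receptor with known roles in melanoma invasion, stood at 45.4, 47.1 and 47.6 FPKM in siNC and at 62.2, 66.0 and 62.0 FPKM in siPGC1a. The lowest siPGC1a value lay far above the highest siNC value. Its mean went from 46.7 ± 1.15 to 63.4 ± 2.27 FPKM (SD, n = 3), a 1.36-fold rise (log2 difference 0.43, SE 0.041, limma adjusted p = 3.57e-05). An exact two-sided permutation test gave 0.1, its lower limit with 3 libraries per group, here and for every other member whose groups did not overlap. These values rest on about 4960 to 6874 reads per library with GENCODE exon lengths. EPHA3, the other tested A-type receptor, stood at 14.8 ± 0.416 and 13.6 ± 0.563 FPKM (n = 3, limma adjusted p = 0.0507), without overlap. EPHA3 lay at the border of the threshold. It passed in 6 of 16 other settings, and its adjusted p ranged from 0.0145 with quantile scaling to 0.147 without siNC replicate 1. The summed A-type receptor level was 61.6 ± 0.836 FPKM in siNC and 77.0 ± 1.95 FPKM in siPGC1a, and EPHA2 made up most of it.

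The upstream window of EPHA2 is shown because EPHA2 is the most abundant of the members that rose. RefSeq windows were given for 29 of the 34 tested members. The window is from RefSeq (GRCh38.p14, minus strand, chr1:16156020-16156319) and runs from 250 bases before the annotated start to 50 bases after it, 5′ to 3′. Capitals mark the letters TGACGTCA, the cAMP response element, which begin 51 bases before the start.
EPHA2: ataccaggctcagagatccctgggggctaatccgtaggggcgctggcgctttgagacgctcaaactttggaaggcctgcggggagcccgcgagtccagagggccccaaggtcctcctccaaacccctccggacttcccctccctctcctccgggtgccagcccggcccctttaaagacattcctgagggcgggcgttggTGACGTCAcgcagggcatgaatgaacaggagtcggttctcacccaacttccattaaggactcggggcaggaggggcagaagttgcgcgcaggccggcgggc

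The same 8 letters stand near an annotated start of SEMA3B and of SEMA4C, which were both lower in siPGC1a. These stretches of 40 bases are shown to set them beside EPHA2. The SEMA3B stretch lies at chr3:50260179-50260218 on the plus strand and the SEMA4C stretch at chr2:96870097-96870136 on the minus strand (GRCh38.p14). The letters begin 31 and 40 bases before those starts. SEMA3B has further annotated starts whose windows do not hold the letters, and the data do not tell which start is used.
SEMA3B: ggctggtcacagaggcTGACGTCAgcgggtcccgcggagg
SEMA4C: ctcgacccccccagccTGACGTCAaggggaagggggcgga

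Searched on both strands, TGACGTCA was in 3 of 43 windows of tested members (6.98%) against 2.83% of the 13104 windows of all tested genes and 1.85% of all 35116 windows of that length. The 43 windows are of 29 genes, so genes with several annotated starts count more than once. Their median GC content was 70.0%, against 64.7% for the windows of all tested genes. The E-box letters CACGTG, which MITF can bind, were in 1 of the 43 windows, 9.52% of those of tested genes and 7.26% of all. The AP-1 letters TGANTCA were in 0 of 43, 5.33% of those of tested genes and 7.71% of all. TNAAGGTCA, bound by estrogen-related receptors, was in 0 of 43, 0.565% of those of tested genes and 0.951% of all. No window of a tested member held both CACGTG and TGACGTCA. A match is a description of letters, and the 3 genes that hold TGACGTCA did not move in 1 direction.

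The B-type receptors showed 1 fall and 1 gene without a called change. EPHB3, a receptor tyrosine kinase for B-type ephrins, stood at 12.4, 13.0 and 12.8 FPKM in siNC and at 9.92, 10.3 and 9.39 FPKM in siPGC1a. The groups did not overlap, and the mean fell from 12.7 ± 0.294 to 9.88 ± 0.469 FPKM (SD, n = 3; log2 difference -0.33, SE 0.046, limma adjusted p = 0.000334). EPHB4, the vascular receptor of EFNB2, was at 10.95, 11.4 and 11.4 FPKM against 11.4, 11.9 and 10.9 FPKM, with overlap and a difference of 0.02 (95% interval -0.08 to 0.12, limma adjusted p = 0.775). EPHB4 has exons opposite to those of the tested gene SLC12A9. Whether their reads were counted apart is not known, since the strand setting of the counting is not given. The within-library ratio of EPHB4 to EPHB3 was 0.877 to 0.893 in siNC and 1.15 to 1.16 in siPGC1a, again a pair chosen after its values were seen. EPHB2 lay below the filter, at 0.777 ± 0.0245 and 0.677 ± 0.0483 FPKM (n = 3).

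Class 3 semaphorins are secreted, and 6 of the 7 genes were tested, of which 4 fell, 1 rose and 1 did not pass. SEMA3C, the most abundant semaphorin in these cells, stood at 76.2, 71.5 and 74.0 FPKM in siNC and at 49.6, 47.4 and 47.9 FPKM in siPGC1a. Every siPGC1a library lay far below the siNC range. The mean fell from 73.9 ± 2.33 to 48.3 ± 1.14 FPKM (SD, n = 3), a ratio of 0.654 (log2 difference -0.6, SE 0.039, limma adjusted p = 4.98e-06). SEMA3D, which acts through neuropilins, stood at 2.42, 2.45 and 2.58 FPKM in siNC and at 1.08, 0.985 and 1.07 FPKM in siPGC1a. Its ratio of 0.421 was the lowest among the 34 tested members (log2 difference -0.77, SE 0.056, limma adjusted p = 9.33e-06). That scale understates the change of a gene at this level, and with a pseudocount of 0.1 the difference was -1.18. About 199 to 523 reads per library stood behind SEMA3D, against 7446 to 12604 for SEMA3C.

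SEMA3A, the NRP1 ligand that collapses growth cones, fell as well, from 9.31, 8.62 and 9.14 FPKM to 7.5, 7.01 and 7.74 FPKM. No siPGC1a value reached the siNC range (log2 difference -0.25, SE 0.05, limma adjusted p = 0.00261). SEMA3B, described as a tumour suppressor gene, was at 40.6, 45.6 and 44.3 FPKM in siNC and at 38.2, 39.4 and 37.8 FPKM in siPGC1a. Its difference was -0.17 (limma adjusted p = 0.0145), and the call was lost without siNC replicate 2 (0.0607), without siNC replicate 3 (0.0605) and without a filter (0.0604). SEMA3G was at 10.2 ± 0.0321 in siNC and 9.52 ± 0.628 FPKM in siPGC1a (n = 3, limma adjusted p = 0.168). The summed level of the 7 class 3 genes was 142 ± 0.749 FPKM in siNC and 109 ± 1.56 FPKM in siPGC1a, most of the gap being that of SEMA3C.

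SEMA3F, the NRP2 ligand, was the class 3 gene that rose. It stood at 2.74, 2.82 and 2.49 FPKM in siNC and at 4.11, 4.02 and 3.56 FPKM in siPGC1a. The groups lay apart, and the mean went from 2.68 ± 0.169 to 3.9 ± 0.291 FPKM (SD, n = 3), a 1.45-fold rise and the largest ratio among the tested members (log2 difference 0.41, SE 0.061, limma adjusted p = 0.000525). The within-library ratio of SEMA3F to SEMA3A was 0.273 to 0.327 in siNC and 0.461 to 0.573 in siPGC1a. With SEMA3F called higher and SEMA3A called lower, this gap follows from the calls, and it was given no test.

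The called class 3 genes lie in a pair of stretches of the genome. SEMA3C, SEMA3E, SEMA3A and SEMA3D stand among 7 protein-coding genes in a row on chromosome 7, and the 3 of them that were tested all fell. Of the other 3 genes in that row CACNA2D1, a calcium channel subunit, was the only one tested, at 2.42 ± 0.183 and 2.32 ± 0.142 FPKM (n = 3, limma adjusted p = 0.606). PCLO and HGF were below the filter. SEMA3F and SEMA3B are the ends of a row of 5 genes on chromosome 3 and moved in opposite directions, while GNAI2 and SLC38A3 between them did not pass (limma adjusted p = 0.455 and 0.557).

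The upstream windows of SEMA3C and SEMA3D are printed because these genes, the ends of the row of 7 on chromosome 7, had the lowest class 3 ratios. They are from RefSeq (GRCh38.p14, both on the minus strand, 5′ to 3′, 250 bases before to 50 after the start), at chr7:80919002-80919301 for SEMA3C and chr7:85187007-85187306 for SEMA3D. None of the 4 motifs occurs in either, so all letters are in lower case.
SEMA3C: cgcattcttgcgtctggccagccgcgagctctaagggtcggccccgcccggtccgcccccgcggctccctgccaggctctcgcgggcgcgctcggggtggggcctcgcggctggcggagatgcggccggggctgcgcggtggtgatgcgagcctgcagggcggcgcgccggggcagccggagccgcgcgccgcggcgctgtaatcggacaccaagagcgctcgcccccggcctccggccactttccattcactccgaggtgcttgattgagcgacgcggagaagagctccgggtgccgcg
SEMA3D: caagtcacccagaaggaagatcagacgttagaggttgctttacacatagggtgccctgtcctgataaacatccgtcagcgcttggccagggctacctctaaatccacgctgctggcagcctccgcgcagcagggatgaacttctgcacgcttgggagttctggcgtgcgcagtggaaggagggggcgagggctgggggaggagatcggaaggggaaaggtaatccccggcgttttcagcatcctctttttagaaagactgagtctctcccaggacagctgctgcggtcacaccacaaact

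The windows differ in composition. That of SEMA3C has a GC content of 75.7% with 46 CpG dinucleotides, and that of SEMA3D 57% with 14, against a median of 70.0% and 26 over the 43 windows of tested members. A further annotated start of SEMA3C has a window at 36.0% GC, and the data do not tell which start is used in these cells.

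Class 4 semaphorins span the membrane, and all 4 tested genes of the 6 fell. SEMA4B stood at 12.9, 14.7 and 13.4 FPKM in siNC and at 8.34, 8.1 and 6.78 FPKM in siPGC1a. The highest siPGC1a value lay well below the lowest siNC value, and the mean fell from 13.7 ± 0.926 to 7.74 ± 0.844 FPKM (SD, n = 3), a ratio of 0.565 (log2 difference -0.75, SE 0.074, limma adjusted p = 4.59e-05). SEMA4G, a ligand of PLXNB2, fell from 3.57, 3.98 and 3.82 FPKM to 2.67, 2.62 and 2.44 FPKM, a ratio of 0.68 (limma adjusted p = 0.000233). SEMA4G has exons opposite to those of the tested gene MRPL43, and whether their reads were counted apart is not known without the strand setting. SEMA4F was at 14.5, 15.4 and 15.4 FPKM in siNC and at 12.2, 13.0 and 12.4 FPKM in siPGC1a (log2 difference -0.25, SE 0.045, limma adjusted p = 0.00148). Neither gene had overlapping groups.

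SEMA4C, another PLXNB2 ligand, had the weakest call of the class, at 13.5, 15.5 and 14.6 FPKM in siNC and 13.1, 13.4 and 12.0 FPKM in siPGC1a. Its adjusted p of 0.0412 (limma) rested on a narrow gap between the groups. The call was lost without siNC replicate 2 (0.146), siNC replicate 3 (0.106), siPGC1a replicate 1 (0.0705) or siPGC1a replicate 3 (0.121), without a filter (0.143) and without the variance trend (0.0531). SEMA4D, the ligand of PLXNB1, and SEMA4A lay below the filter, at 0.531 ± 0.0232 and 0.473 ± 0.0418 FPKM and at 0.322 ± 0.047 and 0.275 ± 0.0201 FPKM (n = 3).

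The membrane-bound class 6 semaphorins were all tested, with 2 lower, 1 higher and 1 not past. SEMA6D, a ligand of PLXNA1, stood at 3.73, 3.78 and 3.69 FPKM in siNC and at 2.405, 2.21 and 2.25 FPKM in siPGC1a. The siNC libraries were close to each other and far from the siPGC1a libraries, and the ratio of means was 0.613 (log2 difference -0.53, SE 0.05, limma adjusted p = 3.76e-05). SEMA6B, the most abundant gene of the class, was at 17.3, 19.0 and 18.9 FPKM in siNC and at 20.5, 22.8 and 19.96 FPKM in siPGC1a. Its log2 difference of 0.19 (limma adjusted p = 0.0233) lost its call without siNC replicate 1 (0.078), without siPGC1a replicate 2 (0.0707), with quantile scaling (0.0644) and without a filter (0.0999). SEMA6A, a ligand of A-type plexins, went from 1.97, 2.02 and 1.97 FPKM to 1.76, 1.67 and 1.58 FPKM (limma adjusted p = 0.0342). That call was lost without siNC replicate 1 (0.0712), 2 (0.0939) or 3 (0.08315), without siPGC1a replicate 2 (0.0686) or 3 (0.0971), with quantile scaling (0.117) and without a filter (0.0862). SEMA6C was at 1.42 ± 0.319 in siNC and 1.27 ± 0.101 FPKM in siPGC1a (n = 3, limma adjusted p = 0.471), with siNC replicate 2 at 1.78 FPKM above the other libraries.

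SEMA7A, the lipid-anchored semaphorin that binds PLXNC1 and integrin beta-1, fell. It stood at 17.4, 17.8 and 17.4 FPKM in siNC and at 14.7, 15.6 and 13.9 FPKM in siPGC1a, without overlap. The log2 difference was -0.24 (SE 0.048, limma adjusted p = 0.00308). Its receptor gene PLXNC1 was below the filter, at 0.89, 0.966 and 0.864 FPKM in siNC and at 0.608, 0.637 and 0.743 FPKM in siPGC1a, a ratio of 0.731. The groups did not overlap, and in the fit without a filter its adjusted p was 0.0869 by limma. Class 5 was nearly silent, with SEMA5A at 0.126 ± 0.00306 and 0.156 ± 0.0437 FPKM (n = 3) and SEMA5B listed at 0 in every library.

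Counted by class, 11 of the 15 tested semaphorins were lower and 2 higher in siPGC1a, with a median log2 difference of -0.24. For ephrins with Eph receptors, 4 of 11 were lower and 2 higher (median -0.08). For plexins with neuropilins, 3 of 8 were lower and 1 higher (median -0.13). In shares, 73.3% of the semaphorins were lower and 13.3% higher, beside 22.5% and 25.6% of all tested genes. The shares were 36.4% and 18.2% for ephrins with Eph receptors, and 37.5% and 12.5% for plexins with neuropilins. Of the 4 members that changed at least 1.5-fold, SEMA3C, SEMA3D, SEMA4B and SEMA6D, 2 are secreted and 2 span the membrane.

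**Figure D3:**
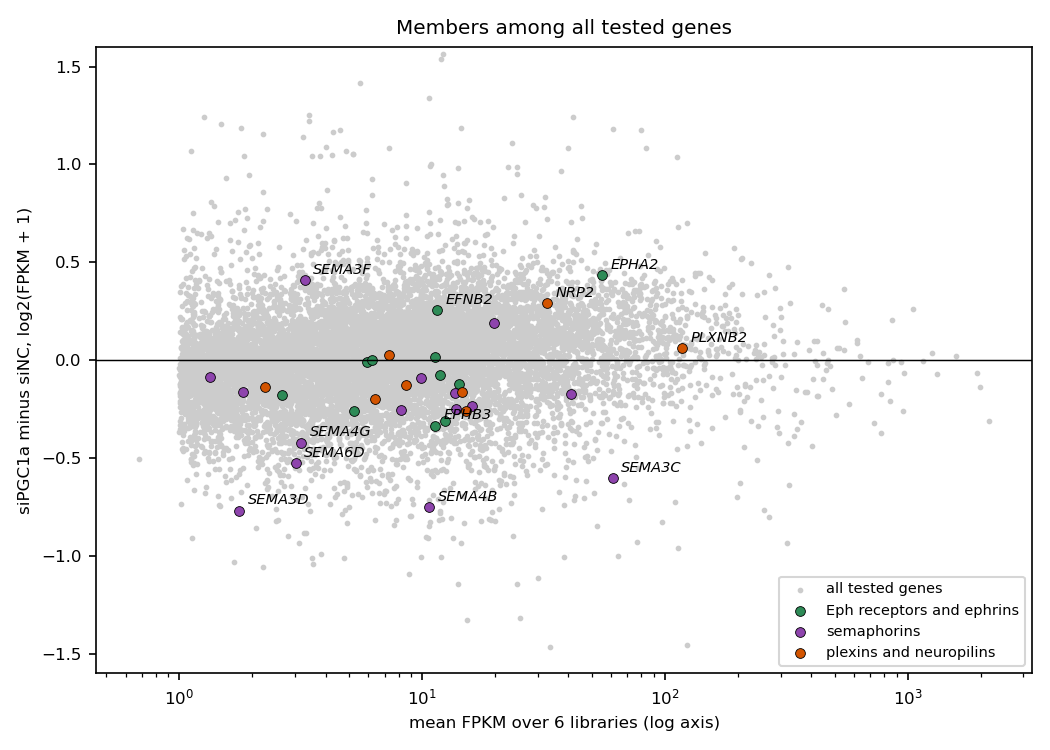
Difference on the log2(FPKM + 1) scale against the mean FPKM over 6 libraries (log axis) for all 12020 tested genes in grey, with 6 genes beyond the vertical range not drawn, and the members in colour. SEMA3D, SEMA4B, SEMA3C and SEMA6D lie lowest among the members, at -0.77, -0.75, -0.6 and -0.53, and EPHA2 and SEMA3F highest, at 0.43 and 0.41.

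The neuropilins, co-receptors for class 3 semaphorins and for VEGF ligands, moved in opposite directions. NRP2 was at 29.3, 29.3 and 29.1 FPKM in siNC and at 37.1, 36.4 and 34.5 FPKM in siPGC1a. All siPGC1a values lay above the narrow siNC range, and the mean rose from 29.2 ± 0.137 to 36.0 ± 1.36 FPKM (SD, n = 3; log2 difference 0.29, SE 0.04, limma adjusted p = 0.000335). NRP1 was at 9.12, 9.01 and 8.79 FPKM in siNC and at 8.25, 8.09 and 8.12 FPKM in siPGC1a. Its fall was small (log2 difference -0.12, SE 0.041, limma adjusted p = 0.0295), and the adjusted p was 0.05103 to 0.08886 when any 1 of the 6 libraries was left out, siPGC1a replicate 1 and siNC replicate 1 giving the ends of that range. The within-library ratio of NRP2 to NRP1 was 3.21 to 3.31 in siNC and 4.25 to 4.5 in siPGC1a. That ratio sets a called rise over a called fall, so its gap adds nothing to the calls, and no test was run on it. Of the VEGF ligands of neuropilins, PGF rose from 2.39 ± 0.125 in siNC to 3.36 ± 0.142 FPKM in siPGC1a (n = 3, limma adjusted p = 0.00052), while VEGFA, at a ratio of 1.01, and VEGFC, at 1.09, did not pass (limma adjusted p = 0.863 and 0.228).

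PLXNB2, the most abundant member, did not pass. It stood at 109, 121 and 117 FPKM in siNC and at 123.2, 127 and 112 FPKM in siPGC1a, so that the groups overlapped (log2 difference 0.06, 95% interval -0.06 to 0.19, limma adjusted p = 0.376). PLXNB3, a receptor of SEMA5A, fell from 15.8, 17.7 and 16.5 FPKM to 14.5, 15.1 and 11.8 FPKM (log2 difference -0.26, SE 0.08, limma adjusted p = 0.0223), but not without siNC replicate 2 (0.0755) or without a filter (0.126). PLXNB1, the SEMA4D receptor, was at 6.87 ± 0.583 in siNC and 5.87 ± 0.59 FPKM in siPGC1a (n = 3, limma adjusted p = 0.051), with no overlap. PLXNB1 likewise passed in 6 of 16 other settings, with an adjusted p of 0.0314 (replicate block) to 0.194 (no filter).

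PLXND1, the receptor of SEMA3E and a partner for SEMA3C, was at 15.3, 15.5 and 15.5 FPKM in siNC and at 13.9, 14.5 and 12.7 FPKM in siPGC1a. The groups did not overlap (log2 difference -0.16, SE 0.05, limma adjusted p = 0.0254), but the call was lost without siNC replicate 2 (0.0658), siNC replicate 3 (0.0785), siPGC1a replicate 3 (0.0634) or a filter (0.0802). The A-type plexins, which pair with neuropilins, gave no call among the 2 tested. PLXNA1 was at 7.25 ± 0.312 in siNC and 7.41 ± 0.459 FPKM in siPGC1a (n = 3, limma adjusted p = 0.696). PLXNA3, which overlaps the tested gene LAGE3 on the other strand, was at 2.4 ± 0.107 in siNC and 2.09 ± 0.184 FPKM in siPGC1a (n = 3, limma adjusted p = 0.0943). PLXNA2 was below the filter, at 0.427 ± 0.0352 and 0.305 ± 0.0246 FPKM (n = 3), with no overlap and an adjusted p of 0.101 in the limma fit without a filter.

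**Figure D4:**
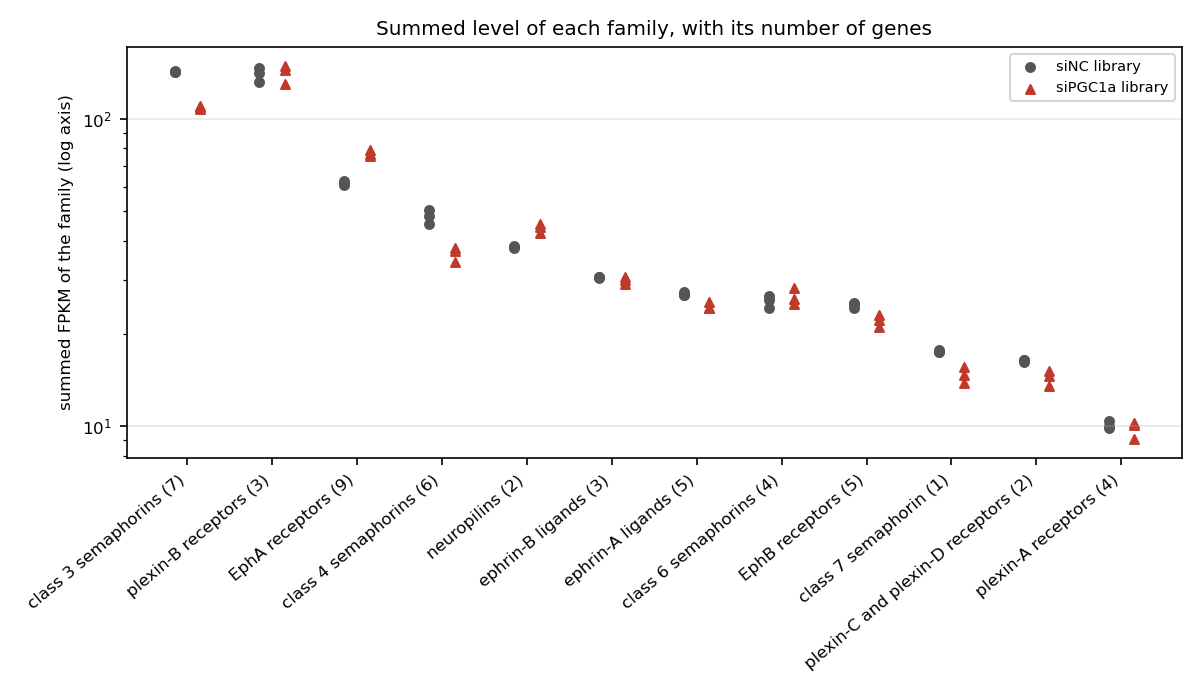
Summed FPKM of each family per library (log axis), with the number of genes in brackets and class 5 semaphorins left out because they lie below 1 FPKM. Class 3 semaphorins (142 and 109 FPKM in siNC and siPGC1a) and class 4 semaphorins (47.9 and 36.4 FPKM) lie lower in every siPGC1a library, and EphA receptors (61.6 and 77.0 FPKM) lie higher.

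Of the 19 members below the filter, 12 had a mean under 0.1 FPKM. They were EPHA1, EPHA4, EPHA5, EPHA6, EPHA7, EPHA8, EPHA10, EPHB1, EPHB6, PLXNA4, SEMA3E and SEMA5B. At most 22 reads per library stood behind any of them, which limits the differences that can be seen. How large a difference could be detected at this depth was not tested. EFNA2 had 1 to 4 reads per library. None of the 19 passed in the limma fit without a filter, in which SEMA5B could not be tested. The exact permutation test cannot decide this, since its p cannot go below 0.1 with 3 libraries per group. WM3248 cells thus expressed 2 of 9 EphA and 2 of 5 EphB receptor genes at 1 FPKM or more, against 7 of 8 ephrin genes.

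The annotated 3' UTRs were searched for the 6-base word ACACCT, a word already known from these data to be more common among lower genes. The longest 3' UTR of a protein-coding GENCODE release 29 transcript was used, and all 34 tested members had one. The word was in 6 of the 18 members that were lower (33.3%), 2 of the 5 that were higher (40%) and 3 of the 11 not past (27.3%). Over the tested genes with such a 3' UTR it was in 48.6% of 2404 lower, 22.7% of 2936 higher and 32.8% of 5453 others. Their median 3' UTR lengths were 1774, 1099 and 1368 bases. Those of the members were 1409.5 (lower), 1008 (higher) and 2325 bases (not past). The lower members that hold it are EFNA3, EFNB3, SEMA3A, SEMA4G, SEMA6A and SEMA6D, and the higher ones are EFNB2 and NRP2. The part of the word in these results was not tested. Sites are printed 5′ to 3′ with the word in capitals for EFNB3 and SEMA6D, which fell, and for EFNB2 and NRP2.
EFNB3: ctggtttgagggACACCTctaacatctcgg
SEMA6D: ctgggtaatgtgACACCTgcagaaactata
EFNB2: ctttcccagaggACACCTaatgtcccgatg
NRP2: ggttttatgtcaACACCTtcaggagggaag

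Listed genes that act with Eph receptors were called about as often as all tested genes. Of 33 listed partners of Eph signalling, 26 were tested, with 7 higher (26.9%), 6 lower (23.1%) and 13 not past (median log2 difference 0.03), beside 25.6% higher and 22.5% lower over all tested genes. PTPN1, a phosphatase that can act on Eph receptors, rose from 26.0 ± 0.328 in siNC to 35.0 ± 0.547 FPKM in siPGC1a (n = 3, limma adjusted p = 2.49e-05). The kinase ABL2 rose 1.32-fold and the phosphatase PTPN11 1.19-fold (limma adjusted p = 0.000507 and 0.00119). RASA1, a Ras GTPase-activating protein that binds Eph receptors, fell to a ratio of 0.836, the Rac GTPase-activating protein CHN1 to 0.738 and the adaptor GIT1 to 0.84 (limma adjusted p = 0.00168, 0.00264 and 0.00342).

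Of 38 listed partners of semaphorin and plexin signalling, 27 were tested, with 9 higher (33.3%), 7 lower (25.9%) and 11 not past (median log2 difference 0.05), beside the same 25.6% and 22.5%. RND3, a small GTP-binding protein that binds plexins and restrains ROCK1, rose from 17.9 ± 1.13 to 33.0 ± 1.93 FPKM (n = 3, 1.84-fold, limma adjusted p = 5.58e-06). LIMK1, which phosphorylates cofilin, rose 1.26-fold (limma adjusted p = 0.000503). DPYSL3 and DPYSL2, of the collapsin response mediator family downstream of SEMA3A, fell from 15.1 ± 0.126 to 11.1 ± 0.205 FPKM and from 7.56 ± 0.0372 to 5.2 ± 0.237 FPKM (n = 3; limma adjusted p = 3.7e-05 and 4.52e-05). L1CAM, an adhesion molecule that joins NRP1 in a SEMA3A receptor, fell from 71.2 ± 2.01 in siNC to 54.3 ± 3.24 FPKM in siPGC1a (n = 3, limma adjusted p = 0.000192).

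Other guidance systems were mostly low. Of 25 listed slits, netrins and their receptors and partners, 6 were tested, with 1 higher (16.7%), 2 lower (33.3%) and 3 not past. Over all tested genes the shares were 25.6% higher and 22.5% lower. NTN4, a secreted netrin, fell from 6.35 ± 0.252 in siNC to 4.41 ± 0.291 FPKM in siPGC1a (n = 3, limma adjusted p = 0.000161), and UNC5C, a netrin receptor, fell to a ratio of 0.673 (limma adjusted p = 0.00158). RGMB, a neogenin ligand, was at a ratio of 1.12 (limma adjusted p = 0.0459), a call lost without siNC replicate 1 (0.0622), 2 (0.0943) or 3 (0.144) and without siPGC1a replicate 1 (0.088) or 3 (0.136).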

How the data were processed

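RNA was sequenced as single reads from stranded poly(A) libraries of 6 samples, per the labels' protocols. The authors deposited 1 table of FPKM values per gene symbol and library. Per the submitters' processing notes, tools included STAR, Picard, featureCounts and DESeq2, with hg19 as the build. No role, version, annotation or strand setting is given in the sources used here. Whether replicate libraries stem from different cultures is not in the labels, and the spread that p-values rest on may be technical.

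Genes with a mean of at least 1 FPKM over the 6 libraries, plus PPARGC1A, were fitted as log2(FPKM + 1) with limma 3.58.1 in R 4.3.3 (trend, two-sided, Benjamini-Hochberg over 12020 genes, threshold 0.05). Differences are siPGC1a minus siNC, on a scale that understates the change of low genes. Exact two-sided permutation tests used scipy 1.17.1. The fit was tested on simulated data. Reads were recovered from the steps of short miRNA genes with GENCODE release 29 lengths, counting a value as whole within 0.1 read. Those lengths and RefSeq (GRCh38.p14) are of another build than the table, so read numbers are approximate and coordinates only locate the printed sequences. RefSeq windows were found for 47 of the 53 members. No 2 libraries held the same values.

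Members and lists were chosen with earlier results of these data known. Named were all members, PPARGC1A, the 3 list genes with the smallest adjusted p in each direction, and abundant markers. VEGFA, VEGFC, CACNA2D1, GNAI2, SLC38A3, the marker genes at 0 and the further melanocyte markers were chosen after their values were seen. The results of 2 further lists are not reported here. Alternatives were other pseudocounts (0.1 and 0.5), filters, scalings, weights, no trend, a replicate block and each library left out.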

Additional observations from a re-analysis of the deposited data

How the results depend on the processing

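Over 16 other settings, 14 of the 23 called members kept direction and call wherever they were tested, and 0 of the 23 changed direction. The count of lower members (18) was 11 without a filter and 11 to 17 with 1 library left out. With a mean of at least 5 FPKM, 1607 genes were lower (2707 as reported, with fewer genes tested) and 4 semaphorin and plexin partners were lower (7 as reported). Members near 0 changed sign: EFNB1 with sum scaling (-0.021), median scaling (-0.0030), without siNC replicate 3 (-0.024) and without siPGC1a replicate 2 (-0.048); EPHB4 with sum scaling (-0.0055), quantile scaling (-0.018), without siNC replicate 1 (-0.00053) and without siPGC1a replicate 2 (-0.0096). So did EFNA5 with quantile scaling (0.0016), sample weights (0.024), without siNC replicate 1 (0.0064) and without siPGC1a replicate 2 (0.021), SEMA6C without siNC replicate 2 (0.021) and PLXNA1 without siPGC1a replicate 1 (-0.0052). With 1 library left out, these log2 differences ran from -0.048 to 0.033 for EFNB1, -0.0096 to 0.044 for EPHB4, -0.036 to 0.021 for EFNA5, -0.14 to 0.021 for SEMA6C and -0.0052 to 0.072 for PLXNA1. The cause was not tested. Correlations of deviations between same-numbered libraries of the groups were 0.077, 0.261 and -0.058. Those between differently numbered libraries ran from -0.331 to 0.253. These values do not settle whether replicate numbers pair the libraries. With the replicate block 5 members were higher and 20 lower, EPHA3 (adjusted p = 0.0322) and PLXNB1 (0.0314) being added. No scaling moved the median of all genes by over 0.1. Depth limits the 12 members under 0.1 FPKM.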
